A study of Rattus norvegicus with 30 samples.

Results

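The endothelial and angiogenic genes of the rat heart are described here: Pecam1, Cdh5, Kdr, Flt1, Tek, Tie1, Vwf, Vegfa, Angpt1 and Nos3. They were found by their symbol in the 75th percentile normalized tables, 1 table per age, and every row of a name was taken. All 10 genes were present at each age, in 11 rows because Tie1 has 2, of 27408 rows at 8 weeks, 27383 at 21 weeks and 26553 at 78 weeks. The samples were whole hearts of untreated Fischer 344 (F344) rats, an inbred strain, with 5 females and 5 males at each of 3 ages: 8 weeks (young), 21 weeks (adult) and 78 weeks (old), or 30 rats in all. No rat carried a transgene or received an agent, and each array held the RNA of 1 heart. The sexes were compared within each age. Each slide of arrays held males at position 1 or 3 and females at position 2 or 4. Sex and array position therefore cannot be told apart. The methods placed the ages in different batches, so an age difference and a batch difference cannot be told apart.

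Endothelial cells line every vessel of the heart, from the coronary arteries to the capillaries between the muscle fibres. VEGF-A, which muscle and other cells secrete, acts on them through the receptor tyrosine kinases VEGFR-2 (Kdr), the main signalling receptor, and VEGFR-1 (Flt1), which binds the ligand tightly and limits its action. Angiopoietin 1 (Angpt1) from the cells around the vessel acts through Tie2 (Tek) and keeps the vessel quiescent, with the related receptor Tie1 as a partner. PECAM-1 and VE-cadherin (Cdh5) hold endothelial cells together, von Willebrand factor (Vwf) is stored in them for haemostasis, and endothelial nitric oxide synthase (Nos3) makes the nitric oxide that relaxes vessel muscle. In whole hearts, fewer endothelial cells and less RNA per endothelial cell cannot be told apart.

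A table row averaged all probes of a name, so the probes decide what a row measures. The 11 rows rest on 16 probes of 60 bases. The scanner software marks each spot as well above its background or not. By that mark, 10 of the 16 probes were above background on all 30 arrays, which covers 9 of the 10 genes (all but Flt1), and no probe was saturated on any array. Probe A_44_P335594 of Tek was above background on 0 of 30 arrays, A_43_P15902 of Vwf on 6, A_43_P12015 of Flt1 on 12, A_44_P988589 of Tie1 on 20, A_44_P520123 of Flt1 on 28 and A_44_P395771 of Tie1 on 29. The first Tie1 row holds only A_44_P988589, designed on the expressed sequence tag AI176031, whose genome coordinates run in the opposite order to those of the other Tie1 probes. Whether it measures the Tie1 transcript was not tested.

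The probes of Vwf, Tek and Vegfa are shown because the table row of each averages 2 sequences from distant parts of the gene, and because the 2 probes of Vwf and of Tek behaved differently. Positions are those of the array design on rat build rn3. A span longer than the probe means that it crosses an intron.
Vwf A_43_P15902 (chr4:162054469-162054528): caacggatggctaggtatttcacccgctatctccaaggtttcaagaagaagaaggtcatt
Vwf A_44_P1025918 (chr4:162098933-162099422): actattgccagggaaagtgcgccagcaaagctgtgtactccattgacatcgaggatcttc
Tek A_44_P335594 (chr5:115105409-115105873): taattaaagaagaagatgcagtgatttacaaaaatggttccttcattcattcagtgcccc
Tek A_44_P534601 (chr5:115183802-115183861): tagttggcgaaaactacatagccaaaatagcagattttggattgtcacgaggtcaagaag
Vegfa A_43_P15572 (chr9:10525902-10526287): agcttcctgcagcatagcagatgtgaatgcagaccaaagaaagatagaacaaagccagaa
Vegfa A_44_P300751 (chr9:10519066-10519125): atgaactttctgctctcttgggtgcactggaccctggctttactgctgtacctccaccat

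The probe starts lie 44464 bases apart in Vwf, 78393 in Tek and 6836 in Vegfa. The Tek probe that never rose above background has the lowest GC content of the 6, at 35.0%, against 40.0% for the other Tek probe. After the mean of each sex and age group was subtracted, the 2 Vegfa probes varied together over the 30 arrays (Pearson r = 0.86), the 2 probes of the second Tie1 row less so (r = 0.53) and the 2 Flt1 probes little (r = 0.20). The 2 Vwf probes did not vary together (r = -0.11), and those of Tek varied in opposite directions (r = -0.58). In each of these pairs 1 probe was mostly or always in the background. A_43_P15902 of Vwf was above it on 6 of 30 arrays and A_44_P335594 of Tek on 0. Such an r does not compare 2 measured levels. These correlations describe probes on the same arrays and carry no test.

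The arrays differed in ways that touch the genes below. The 75th percentile of the scanner's processed signal was 98.0 to 171 at 8 weeks, 82.7 to 123 in 21-week females, 39.9 to 105 in 21-week males and 83.5 to 124 at 78 weeks. The weakest array, 21-week male replicate 2, had 17182 of 43379 spots above background, against 19135 to 24290 on the others. The Y-linked genes Ddx3y and Eif2s3y showed the level of the opposite sex on the arrays labelled 78-week female replicate 2 and 78-week male replicate 3, so results at 78 weeks are given with and without both. Of the markers of heart muscle, all 10 genes had a probe above background on every array, and of 33 other endothelial marker genes 29 had one.

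**Figure D1:**
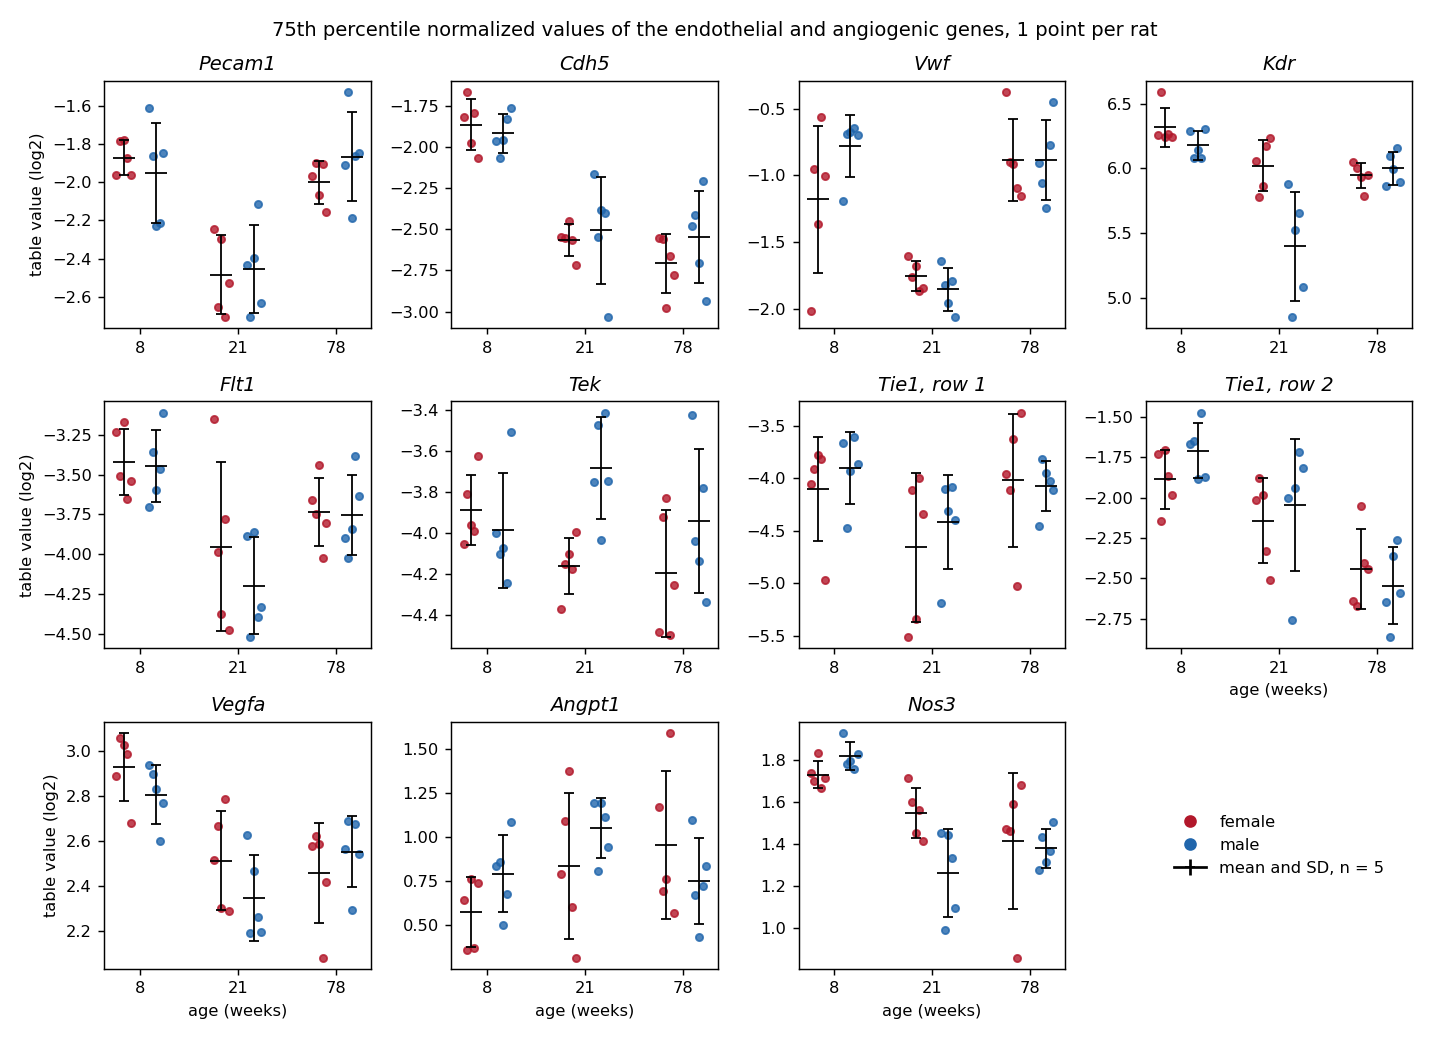
75th percentile normalized value (log2, vertical axis) of each table row by age (horizontal axis) and sex, with 1 point per rat and the mean and SD of 5 rats. The 3 tables were normalized separately, so positions are comparable within an age. Sexes overlapped in every panel, and the 21-week males spread widely for Kdr, from 4.86 to 5.88.

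In young rats, no endothelial or angiogenic gene passed a test of male against female hearts. None of the 11 rows passed limma's adjusted p of 0.05 (lowest 0.935), none passed an unadjusted p of 0.05, and in none were the sexes apart without overlap. Over all rows, 0.102% passed the adjusted threshold, 2.21% favoured females and 3.52% males at the unadjusted one, and 0.558% and 0.850% had no overlap. Means were higher in females for 6 of 11 rows (48.9% of all rows), and the median difference, female minus male on the log2 scale, was 0.02 against -0.00 over all rows.

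Kdr was 76.5, 96.1, 75.6, 76.8 and 75.7 in young females and 78.0, 67.5, 70.5, 67.7 and 79.1 in young males, in normalized units of the table. All but the highest female lay within the span of the males. Nos3 was 3.33, 3.24, 3.56, 3.17 and 3.27 in females and 3.80, 3.43, 3.46, 3.38 and 3.55 in males. A single male lay above all females, and 4 of the 5 females lay below all males. The difference of -0.09 (SE 0.062, 5 against 5) had an exact permutation p of 0.0635. That test was two-sided, and the smallest p it can give with 5 against 5 is 0.00794. The ligand Vegfa differed by 0.12 (95% interval -0.09 to 0.33), its receptor Flt1 by 0.02 (-0.28 to 0.33) and Angpt1 by -0.22 (-0.51 to 0.07). The differences of the junction proteins were 0.08 for Pecam1 (-0.20 to 0.36) and 0.05 for Cdh5 (-0.16 to 0.26). Vwf had the largest difference in young hearts, -0.40 (-0.95 to 0.16), and its widest spread in females, from 0.247 to 0.677. Of its probes, A_43_P15902 was above background in 1 of 5 young females and 3 of 5 young males, so the row rests partly on values in the background. On A_44_P1025918, above background in every rat, all 10 young rats lay between 3.39 and 3.61, and the Vwf difference was -0.08 (-0.22 to 0.07).

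In adult rats, Kdr was higher in female hearts and Tek higher in male hearts by the unadjusted test, and neither passed after adjustment over all rows. These 2 of 11 rows, 1 in each direction, compare with 6.19% of all rows in favour of females and 9.67% in favour of males at the same unadjusted threshold. The adjusted p was 0.277 for Kdr and 0.274 for Tek, and 0 of 11 rows passed 0.05 (0.0511% of all rows did). No member row was without overlap between the sexes (1.93% of all rows were, with females above, and 2.12% with males above). The median difference over all rows was -0.14, so the table as a whole leaned towards males, with 36.8% of rows higher in females.

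Kdr, the receptor for VEGF-A, was 66.5, 55.0, 58.2, 72.2 and 75.2 in adult females and 58.8, 29.0, 46.1, 50.5 and 34.0 in adult males. A single male overlapped the females, and the other 4 lay below all of them. The difference was 0.62 on the log2 scale (SE 0.20, 95% interval 0.17 to 1.07), or 1.54-fold, with an exact permutation p of 0.0238 for this row alone. Leaving out each array in turn moved it between 0.50 and 0.75, with an adjusted p of 0.127 to 0.496 (limma). The single Kdr spot was marked as an outlier spot by the scanner software on 16 of the 30 arrays, 5 of them at 21 weeks, and the table kept those values. With them left out, 3 females and 2 males remained, and the difference was 1.01.

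Tek, the receptor for angiopoietins, was 0.0483, 0.0563, 0.0581, 0.0553 and 0.0626 in the table for adult females and 0.0741, 0.0901, 0.0610, 0.0938 and 0.0746 for adult males. Here 4 of the 5 males lay above all females. The row differed by -0.48 (SE 0.15, 95% interval -0.80 to -0.15) with an exact permutation p of 0.0159. Of its 2 probes, however, A_44_P335594 stayed in the background on all arrays and gives no level to compare. On A_44_P534601, above background in every rat, the values over the array's 75th percentile were -1.57, -1.66, -1.80, -1.62 and -1.67 in females and -0.90, -1.48, -1.41, -2.01 and -1.51 in males (log2). On that probe 4 of the 5 males lay above all females and 1 lay below all of them. In the row the lowest male lay within the female range. The difference was -0.20 (95% interval -0.63 to 0.22, exact permutation p = 0.349).

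Vwf showed the reverse case. Its table row differed by 0.10 in adult hearts (95% interval -0.17 to 0.38, exact permutation p = 0.286). Probe A_43_P15902 was above background on 0 of the 10 adult arrays and gives no level there. On A_44_P1025918 the values were 3.24, 2.91, 3.36, 3.30 and 3.42 in females and 3.22, 2.18, 2.77, 2.78 and 2.35 in males. The highest male was within the female range and the other 4 were below every female, and the difference was 0.59 (SE 0.21, 95% interval 0.13 to 1.05), with an exact permutation p of 0.0159. Its adjusted p over all probes was 0.363 in limma's moderated test.

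**Figure D2:**
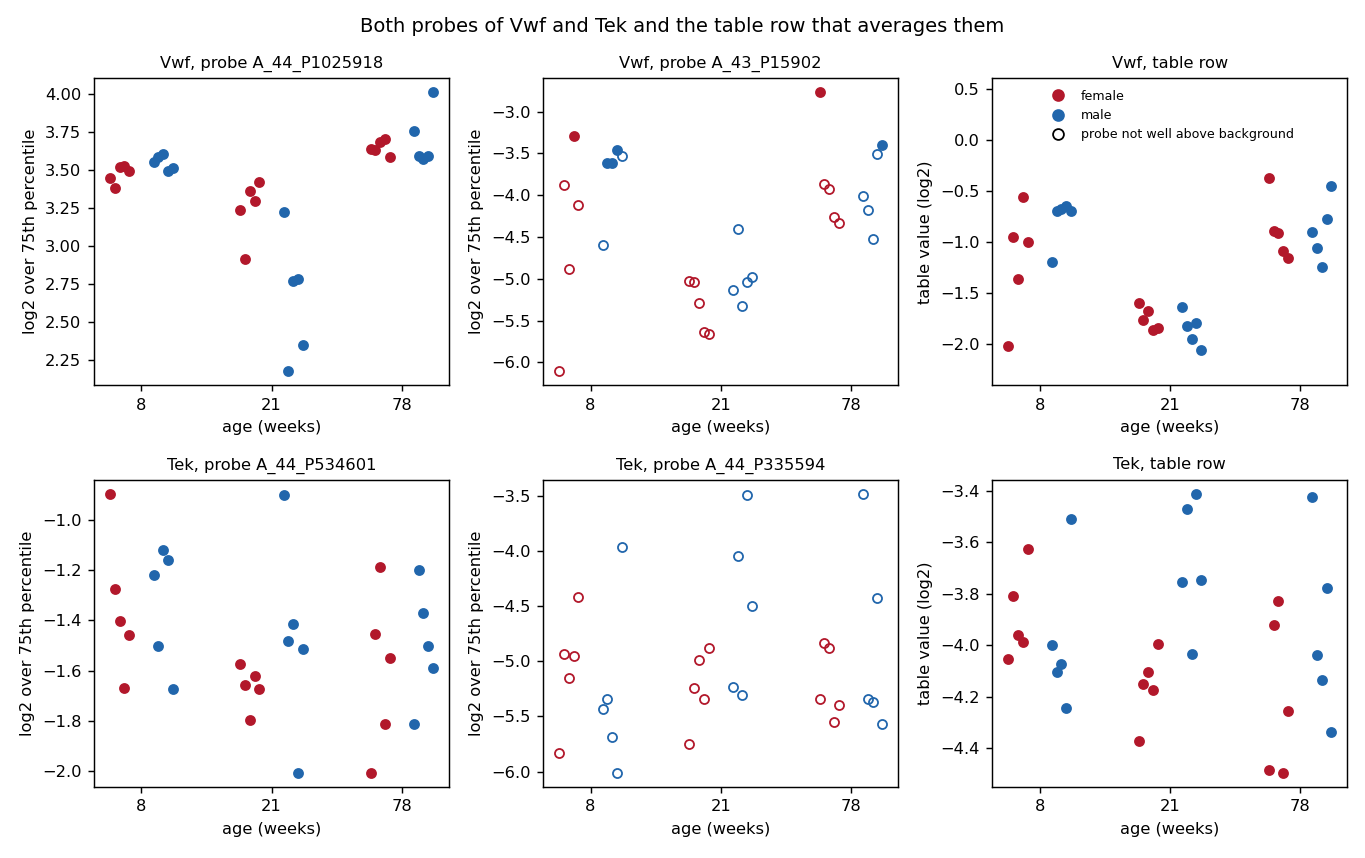
Vwf (top) and Tek (bottom) by age (horizontal axis) on each of their 2 probes (log2 of signal over the array's 75th percentile) and in the table row that averages them (log2), with 1 point per rat. Open points are arrays on which the probe was not well above background. A_44_P335594 of Tek has only open points, and the adult row of Vwf lacks the separation seen on A_44_P1025918.

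Nos3, the nitric oxide synthase of endothelium, was 3.27, 3.03, 2.73, 2.95 and 2.66 in adult females and 2.74, 1.99, 2.72, 2.52 and 2.14 in adult males. The highest males fell within the female range. The difference was 0.28 (95% interval -0.02 to 0.58), with an exact permutation p of 0.0397 for this row and a limma adjusted p of 0.325. Vegfa differed by 0.16 (-0.17 to 0.49) and Flt1 by 0.25 (-0.32 to 0.81). Both had intervals that include 0, as had Angpt1 at -0.22 (-0.66 to 0.23). The junction proteins had differences near 0 in adult hearts, -0.03 (-0.37 to 0.31) for Pecam1 and -0.06 (-0.42 to 0.30) for Cdh5. The second Tie1 row differed by -0.10 (-0.57 to 0.37).

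**Figure D3:**
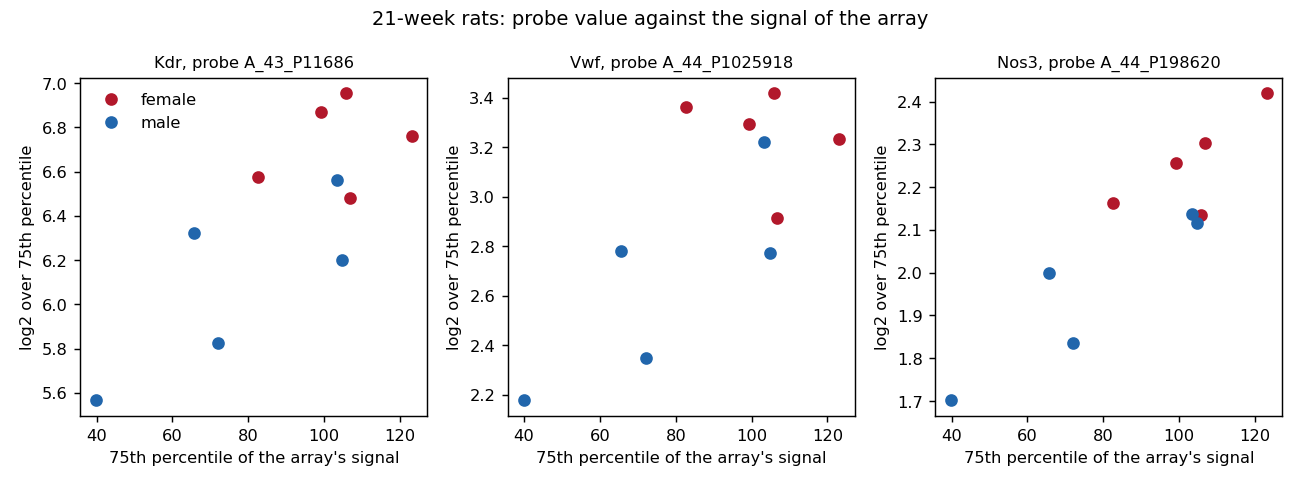
Log2 of signal over the array's 75th percentile (vertical axis) for Kdr, Vwf and Nos3 against that percentile of the same array (horizontal axis, scanner units) in the 10 adult rats. For all 3 probes the lowest value is on the array with the weakest signal, 39.9, which is 21-week male replicate 2.

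The adult arrays with weaker signal were male. The 3 arrays with a 75th percentile under 80 were all 21-week males, and they held the 3 lowest values of Nos3 and the 2 lowest of both Kdr and Vwf on A_44_P1025918. Summed cardiomyocyte markers ran from 4445 to 6353 array units in adult females and from 4987 to 11761 in adult males, and summed red blood cell markers from 240.2 to 377 and from 286 to 726. An array unit is the array's 75th percentile, and a sum adds the signal over it for the probes of a list that were above background on all arrays. The part of array signal and of these markers in the sex differences was not tested. Against the median of all rows, the adult difference was 0.76 for Kdr, 0.42 for Nos3 and -0.34 for Tek.

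By the methods' t-test, an unadjusted analysis of variance on sex, Kdr and Nos3 passed in favour of adult females and Tek in favour of adult males (6.41% and 9.52% of all rows). It called no member in young rats (2.98% and 3.51% of all rows) or old rats (2.64% and 3.19%). After Benjamini-Hochberg adjustment it called 0 of 11 rows at each age, with limma's unadjusted test naming 0, 2 and 0.

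In old rats, again no row passed, adjusted (lowest 0.863, 0% of all rows) or unadjusted (1.98% of all rows favoured females, 3.68% males). None of the 11 was without overlap (0.410% and 0.490% of all rows). Means were higher in females for 5 of 11 rows (49.2% of all rows). Differences ran from -0.25 for Tek (95% interval -0.70 to 0.19) to 0.20 for Angpt1 (-0.26 to 0.66). Kdr was 66.4, 64.0, 61.2, 55.3 and 61.9 in females and 58.2, 68.3, 63.8, 71.5 and 59.5 in males, with the sexes interleaved, and differed by -0.06 (-0.27 to 0.16). Nos3 was 2.78, 2.75, 3.01, 1.82 and 3.21 in females and 2.42, 2.70, 2.48, 2.58 and 2.84 in males. The lowest value and the 2 highest were all female, and the difference was 0.03 (-0.30 to 0.37).

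Without the 2 arrays at odds with their label, 4 old females against 4 old males remained. The adjusted p of the 11 rows then ran from 0.683 to 0.979 (limma). The largest differences were Tek at -0.35 (SE 0.24) and Tie1, second row, at 0.23 (SE 0.18). Pecam1, the junction protein that leukocytes pass in leaving vessels, differed by -0.22 with an exact permutation p of 0.0857, where the smallest that 4 against 4 allows is 0.0286.

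**Figure D4:**
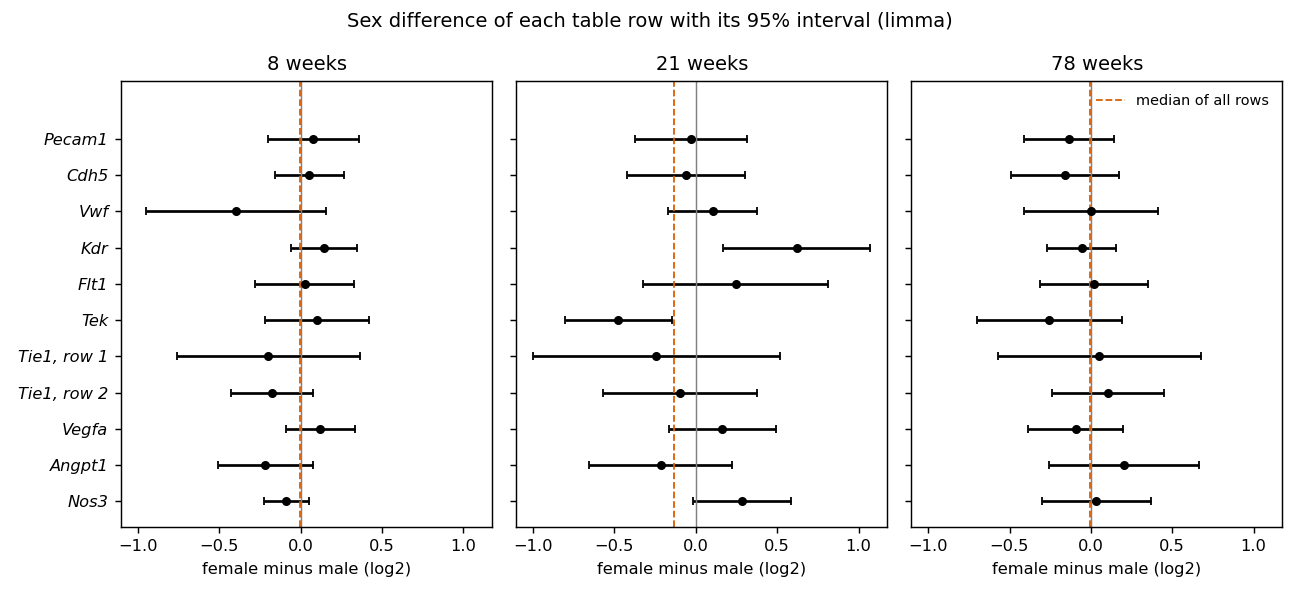
Female minus male difference (log2, horizontal axis) of each of the 11 table rows at 8, 21 and 78 weeks, with the 95% interval from limma, and the median of all rows of that table as a dashed line. The intervals of Kdr (0.17 to 1.07) and Tek (-0.80 to -0.15) at 21 weeks are the only ones of 33 that leave out 0.

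Whether the sex difference changed with age was tested on the probes, with the F test of sex by age in limma over all 30 arrays. The paper left this interaction out because ages were in different batches, and held that testing it might give false positives. A sex difference that changed with batch cannot be told apart from one that changed with age. Of the 16 member probes, 2 had an unadjusted p under 0.05, against 11.3% of all probes, and none passed after adjustment (0.00244% of all probes). They were A_44_P1025918 of Vwf (unadjusted p = 0.00244, adjusted p = 0.359) and A_43_P11686 of Kdr (0.00494 and 0.366). The female minus male difference of Vwf on that probe was larger by 0.66 in adult than in young rats and by 0.02 in old than in young rats. For Kdr, whose outlier spots were left out here, it was larger by 0.77 in adult than in young rats, and by 0.48 with them kept. The Kdr change from young to old rats was -0.44, with 1 old female and 2 old males left, and -0.19 with outlier spots kept. With those spots kept, the F test gave Kdr an unadjusted p of 0.00657 and an adjusted p of 0.376. Over the fits that left out 1 array the adjusted p of Vwf ran from 0.0453, without 21-week male replicate 1, to 0.653.

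The old hearts were then compared with the young ones, averaged over the sexes, with the level taken as log2 of the processed signal over the array's 75th percentile. VE-cadherin, Tie1 and, less firmly, Nos3 were lower in old hearts, and no member was higher past the test. After adjustment, 3 of 16 member probes were lower and 0 of 16 higher at 78 weeks, where 4.07% of all 40999 probes were lower and 4.78% higher. Among the 17510 probes above background on all 20 arrays these shares were 7.88% and 7.96%. Means were higher at 78 weeks for 6 of 16 probes (66.0% of all probes) and lower for 10 (34.0%). The median of the 16 differences was -0.20, against 0.13 over all probes and -0.00 over the probes above background on all 20 arrays. Quantile normalization brought the median of all probes to 0.00, and changed the split of called probes from 1960 higher and 1667 lower to 1895 and 2517.

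The probes of these 3 genes are printed here because the age difference rests on them.
Cdh5 A_43_P19735 (rn3 chr19:788852-790286): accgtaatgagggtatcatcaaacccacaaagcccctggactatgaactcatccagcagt
Tie1 A_44_P520235 (rn3 chr5:138955489-138955548): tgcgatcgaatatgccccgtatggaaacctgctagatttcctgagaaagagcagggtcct
Nos3 A_44_P198620 (rn3 chr4:6159286-6159345): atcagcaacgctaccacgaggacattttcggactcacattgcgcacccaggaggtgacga
The Cdh5 probe crosses an intron, the other 2 lie in a single stretch, and the Nos3 probe was spotted 10 times on each array.

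Cdh5 on A_43_P19735 was -1.39 at the lowest, -1.23 at the median and -0.96 at the highest in the 10 young rats, and -2.19, -1.81 and -1.39 in the 10 old rats. All 10 old rats lay below all 10 young rats, though the nearest of each are equal at this rounding. The difference was -0.63 (SE 0.098, 95% interval -0.83 to -0.43), or 1.55-fold lower, with an adjusted p of 6.46e-05 in limma. A second probe designed on Cdh5, A_44_P121658, which the tables list under its probe name and not as Cdh5, differed by -0.73 (adjusted p = 0.000642).

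Tie1 on A_44_P520235 ran from -0.75 to -0.25 in young rats (median -0.39) and from -1.55 to -0.77 in old rats (median -1.07). These groups did not overlap either. The Kdr probe was not judged for overlap, because its outlier spots were dropped. Of the other member probes 2 were apart without overlap, both lower. Among all probes so judged, 1.04% were lower and 0.904% higher in that way. The Tie1 difference was -0.71 (SE 0.10, 95% interval -0.91 to -0.50), or 1.63-fold lower, with an adjusted p of 1.80e-05. On the second Tie1 probe, A_44_P395771, it was -0.48 (SE 0.17, adjusted p = 0.0760), and 7 of 10 old rats were below all young ones. A_44_P988589, the tag probe, differed by 0.07 (95% interval -0.38 to 0.51).

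Nos3 ran from 2.34 to 2.60 in young rats (median 2.44) and from 1.68 to 2.47 in old rats (median 2.23). Here 8 of 10 old rats lay below all young ones. The difference was -0.27 (SE 0.082, adjusted p = 0.0373), or 1.20-fold lower, and was -0.26 (adjusted p = 0.0827) without the 2 arrays at odds with their label. The call was lost on leaving out any of 11 of the 20 arrays singly (8-week female replicates 1, 2, 3 and 5, 8-week male replicates 1, 2, 3 and 5, 78-week female replicate 2 and 78-week male replicates 1 and 3), with an adjusted p of 0.0218 to 0.0685 over all 20. Cdh5 and Tie1 kept their calls without those 2 arrays (adjusted p = 0.000309 and 5.47e-05) and on leaving out any array singly, with adjusted p up to 0.000209 and 6.51e-05.

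The signal of VEGF-A and its receptors did not pass the test with age. Vegfa differed by -0.26 on A_43_P15572 (SE 0.087, adjusted p = 0.0646) and by -0.21 on A_44_P300751 (SE 0.099, adjusted p = 0.200), its 2 probes being alike in size and sign. Kdr differed by -0.20 (95% interval -0.56 to 0.16) on 6 young and 3 old arrays, because outlier spots were dropped, and by -0.17 (SE 0.099, adjusted p = 0.256) with them kept. Flt1 was -0.09 (-0.37 to 0.19) on A_44_P520123. On A_43_P12015 it was -0.32 (-0.75 to 0.10), with that probe above background on 8 of 10 young and 3 of 10 old arrays.

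Of the remaining genes, Angpt1 differed by 0.28 (95% interval 0.00 to 0.55, adjusted p = 0.202) and Tek on A_44_P534601 by -0.21 (-0.47 to 0.04). Pecam1, at 0.08 (-0.11 to 0.28), and Vwf on A_44_P1025918, at 0.16 (-0.03 to 0.36), did not pass the test either, and neither interval reached the difference of Cdh5. For Vwf, 6 of 10 old rats lay above all young ones, and in a fit of the 20 young and old arrays alone its adjusted p was 0.0458. In that fit Tie1 A_44_P395771 and Vegfa A_43_P15572 also passed (0.0177 and 0.0343).

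**Figure D5:**
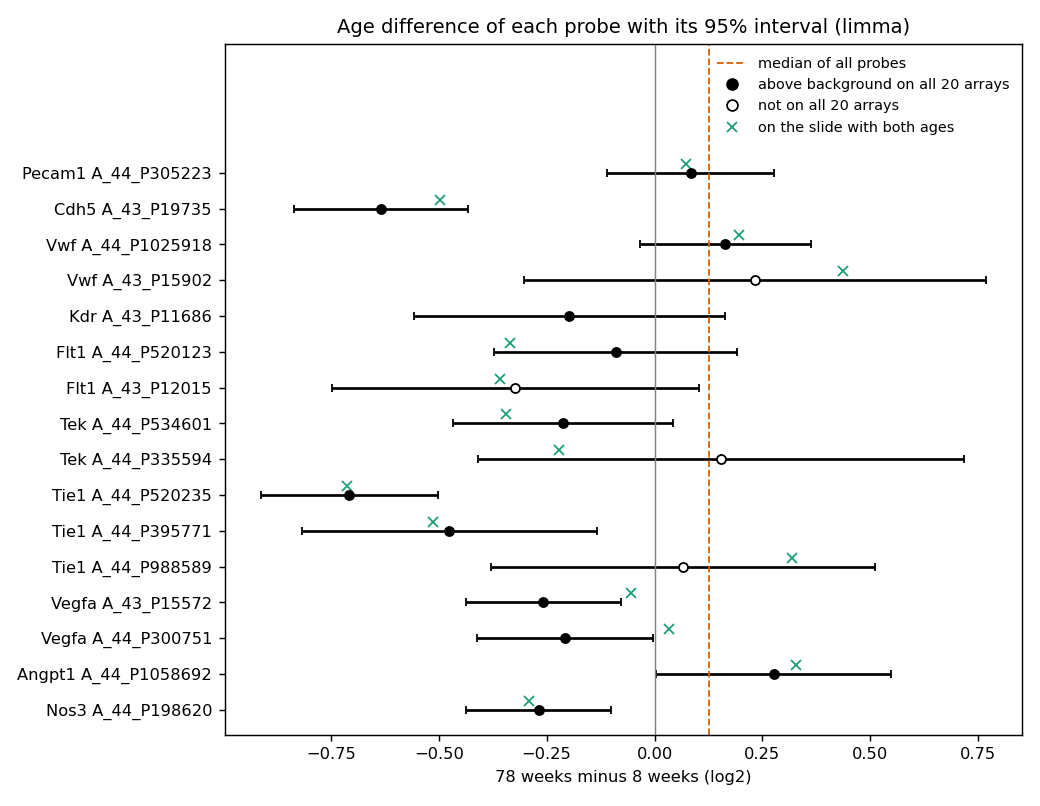
Old (78 weeks) minus young (8 weeks) difference on the log2 scale (horizontal axis) of each of the 16 member probes with its 95% interval (limma), and the value on the slide that held both ages as a cross. Filled points were above background on all 20 arrays, and Kdr is on 9 arrays. Cdh5, Tie1 A_44_P520235 and Nos3 lie left of 0 with crosses on the same side.

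A single slide held 2 young and 2 old rats, a female and a male of each age, and gives the age difference within a slide. Cdh5 was -1.38 and -1.07 in its young female and male and -1.74 and -1.70 in its old female and male, a difference of -0.50. For Tie1 A_44_P520235 the same rats gave -0.39 and -0.50 against -0.96 and -1.36, a difference of -0.71, and for Nos3 2.40 and 2.52 against 2.29 and 2.06, a difference of -0.29. All 3 differences on the slide had the sign of the whole comparison, as had 13 of the 15 probes measured there. The arrays of this slide are also part of the whole comparison. A shared sign is thus partly built in and is no separate support, and its share over all probes is not given. The slide is not the batch named in the methods, so batch and age still cannot be told apart.

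The background method mattered for the age result. The normexp background correction, which models the background around each spot, was run with a constant of 50 scanner units added to each signal. No member passed with it, and the part of that constant in the lost calls was not tested. Cdh5 then differed by -0.14 (adjusted p = 0.267), Tie1 by -0.29 (adjusted p = 0.0728) and Nos3 by -0.46 (adjusted p = 0.114). On the raw median signal all 3 passed, with differences of -0.33 for Cdh5, -0.45 for Tie1 and -0.28 for Nos3.

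Levels in the adult rats are described without a test, since 21-week arrays shared no slide with another age. The adult arrays include the weakest of the series, whose part in these levels was not tested. Cdh5 on A_43_P19735 ran from -2.29 to -1.48 in adults (median -1.84), against -1.39 to -0.96 in young rats. On A_44_P121658 it ran from -2.29 to -1.16 in adults (median -1.58), against -1.51 to -0.87 in young (median -1.08) and -2.43 to -1.04 in old rats (median -1.90), so adults and young rats overlapped on that probe. Tie1 on A_44_P520235 ran from -1.11 to -0.40, with a median of -0.62 between those of young and old rats. Pecam1 was lowest in adults, from -2.01 to -1.45, against -1.55 to -0.94 in young and -1.42 to -0.76 in old rats. Vwf on A_44_P1025918 also was, from 2.18 to 3.42, against 3.39 to 3.61 in young and 3.57 to 4.01 in old rats.

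The other genes of these pathways were taken from lists of ligands, receptors and enzymes. For each list, the shares to compare with are 4.07% lower and 4.78% higher over all probes. Among probes above background on all 20 arrays they are 7.88% and 7.96%. In the nitric oxide pathway, 5 of 17 probes were lower and 0 higher in old hearts. They were Cav1, the caveolin that binds the synthase (-0.39, adjusted p = 0.000242), the guanylate cyclase subunit Gucy1b3 (-0.45, 0.00232), Ddah1, which removes an inhibitor of the synthase (-0.41, 0.00867), and both probes of Nostrin, its trafficking protein (-0.83, 0.0160, and -0.50, 0.0270). The median difference of that list was -0.27, against 0.13 over all probes. Among the other VEGF ligands and receptors, 0 of 9 probes passed in either direction, with Figf (0.56, adjusted p = 0.165) and Pgf (0.32, 0.172) the smallest p. Of the other angiopoietin and Tie genes 1 of 5 was lower, the angiopoietin-like Angptl1 (-0.33, 0.00829). None of 8 probes of the vessel Notch pathway passed, the nearest being Jag1 (0.21, 0.0663) and Notch4 (-0.17, 0.101). Of 11 probes for hypoxia sensing, both of Hif1a were lower (-0.38, 0.000567, and -0.25, 0.00907).

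Other angiogenic ligands, receptors and inhibitors moved both ways, 6 of 25 probes lower and 2 higher in old hearts (4.07% and 4.78% of all probes). The peptide apelin (Apln, -0.83 and -0.80, adjusted p = 2.57e-08 and 1.90e-06) and its receptor Aplnr (-1.001, 7.64e-09, and -0.84, 0.0270) were lower on both probes of each, as was the chemokine receptor Cxcr4 (-0.71, 1.71e-05, and -0.68, 3.29e-05). Fgf2 (0.86, 1.99e-07) and the Cxcr4 ligand Cxcl12 (0.36, 0.00238) were higher.

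Of 53 probes of other endothelial markers, 12 were lower and 6 higher in old hearts, with a median of 0.04. Over all probes 4.07% were lower and 4.78% higher, with a median of 0.13. Among those above background on all 20 arrays, 7.88% were lower and 7.96% higher. Lower were the transcription factors Sox7 (-0.74, adjusted p = 1.13e-06) and Sox18 on 2 probes (-0.43 and -0.45), the semaphorin receptor Plxnd1 on 2 probes (-0.70 and -0.76), Emcn (-0.49), Eltd1 (-0.33), the tight junction protein Cldn5 (-0.41), the water channel Aqp1 (-0.43), Icam2 (-0.26), Tfpi (-0.41) and Egfl7 (-0.33). Higher were the adhesion molecules Vcam1 (0.91, adjusted p = 3.56e-06) and Icam1 (0.39), the fatty acid transporter Cd36 (0.63), Gpihbp1 (0.78), Klf4 (0.29) and Procr (0.31). The summed level of the list was 331 to 368 array units in young and 312 to 379 in old rats. Without the 2 arrays at odds with their label, the calls of Icam2, Egfl7 and 1 Nostrin probe were lost (adjusted p = 0.0793, 0.0999 and 0.0678), as were those of Pln and Hba-a2 named next (0.0574 and 0.0721).

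Some marker probes of other cell types also passed with age, and their part in the result was not tested. Over all probes 4.07% were lower and 4.78% higher, and 7.88% and 7.96% of those above background on all 20 arrays. The cardiomyocyte and leukocyte lists, with 1 call each way, lie near these shares. Of 13 fibroblast probes 4 were lower, all of collagens (Col1a1 at -1.71 and -1.34, Col3a1 at -1.41 and Col1a2 at -1.30), and another Col3a1 probe was higher at 0.47. The summed fibroblast level was 427 to 530 array units in young and 202 to 385 in old rats. Of 11 pericyte and smooth muscle probes, 3 were lower, Rgs5 (-0.40), Pdgfrb (-0.34) and Kcnj8 (-0.28), and the sum ran from 110 to 131 in young and from 83.2 to 135 in old rats. Of 22 cardiomyocyte probes 1 was higher (Myh6, 0.52) and 1 lower (Pln, -0.40), with sums of 3231 to 4996 in young and 4066 to 5893 in old rats. Among leukocyte probes 1 of 15 was higher (Cd68, 0.39) and 1 lower (Cd79b, -1.34), 2 of 8 red blood cell probes were higher (Hbb, 0.53, and Hba-a2, 0.74), 1 of 7 lymphatic probes was (Ccl21, 0.62), and 1 of 4 adipocyte probes was (Cfd, 1.29).

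Between the sexes, the same lists held 1 row past the adjusted test over the 3 ages. Of all rows 0.102% passed at 8 weeks, 0.0511% at 21 weeks and 0% at 78 weeks. Gch1, which makes a cofactor of nitric oxide synthase, was higher in young male hearts by 0.65 (female minus male -0.65, SE 0.093, adjusted p = 0.0440). Of 46 rows of other endothelial markers, the unadjusted test named 7 with females above and 3 with males above in young rats (2.21% and 3.52% of all rows), 5 and 3 in adult rats (6.19% and 9.67%) and 0 in old rats (1.98% and 3.68%). None passed after adjustment. The smallest p was that of Gpihbp1, which holds lipoprotein lipase on capillaries, in young rats (0.51, adjusted p = 0.116), and in adult rats that of Klf4, a flow-responsive transcription factor (0.47, adjusted p = 0.260). In young rats the VEGFR-1 ligand Pgf had a difference of -0.69 (adjusted p = 0.499) and Col18a1, the source of endostatin, of -0.37 (adjusted p = 0.234). In adult hearts the other endothelial markers had a median difference of 0.06 and the 11 member rows one of -0.03, against -0.14 over all rows.

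The members did not vary as a block among rats of the same age and sex. Over 30 arrays, with group means subtracted and the probe with the highest mean taken for each gene, Pearson r between 2 members ran from -0.36 for Tek and Angpt1, receptor and ligand, to 0.62 for Vegfa and Nos3. Kdr and Vwf reached 0.61 and Cdh5 and Kdr 0.50, while Pecam1 and Cdh5, both junction proteins, reached 0.31. Among 11134 named probes above background on every array, the closest to Vwf were Olfml2a (r = 0.86), Col4a1 (0.86) and Rrbp1 (0.84). The closest to Nos3 were Dab2 (0.88), Sept8 (0.87) and Wdr37 (0.85), and to Kdr were Bicd2 (0.89), RGD1309414 (0.87) and LOC301126 (0.87). Vegfa was closest to Mettl16 (0.82), Slk (0.80) and Cbll1 (0.80), and Flt1 to Dnajc14 (0.75), Meis2 (0.70) and Kat7 (0.68). Angpt1 was closest to Lgalsl (0.74), Cd1d1 (0.72) and LOC100364479 (0.71), Tek to LOC680155 (0.65), RGD1307934 (0.60) and Entpd1 (0.58), and Tie1 to Xab2 (0.86), Uba1 (0.83) and Cyb5r1 (0.80). Cdh5 was closest to Klhl24 (0.78), Tnks2 (0.74) and Nsrp1 (0.72), and Pecam1 to Lars (0.77), RGD1566355 (0.77) and Luc7l2 (0.74). All these pairs share arrays and array signal, and no test was made.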

How the data were processed

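Total RNA of 30 rat hearts, 1 heart per array, was labelled with Cy3 and hybridized to Agilent Whole Rat Genome arrays, 4 to a slide on 8 slides. The authors deposited the scanner intensity of each spot (Agilent Feature Extraction) and 1 table per age of intensity averaged over the probes of a gene and scaled to the 75th percentile of the array. Of the table rows, 98.7% to 98.8% were matched to the mean log2 scanner values of a name within 0.002. The precision is limited by the number of arrays.

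Groups were taken from the labels, with 5 rats of each sex and age. Sexes were compared at each age on the log2 table rows with limma 3.58.1 in R 4.3.3 (Benjamini-Hochberg adjustment over all rows) and, for member rows, a two-sided exact permutation test. Ages and the sex by age term were tested on probes, as log2 processed signal minus the array's 75th percentile, over 30 arrays with spots marked as outliers left out. The fits were tested on simulated data. Leave-one-out, slide, background and normalization alternatives were run, and 1 fit per comparison (each probe on its own, or outlier spots kept) was chosen after seeing the data. Females and males of the same replicate number shared a slide at every age. Their residuals correlated at -0.21 to 0.19 at 8 weeks, -0.15 to 0.56 at 21 weeks and 0.14 to 0.30 at 78 weeks. Only at 78 weeks did every such pair exceed the median of the pairs with other numbers, as found from the data.

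The members and gene lists were chosen with earlier results of these data known. All members are named with every row. Of the other lists, genes past the adjusted test are named, otherwise up to 2 with the smallest p, and for the sex comparisons a few of these. All table columns were assigned to a group by name. Probe positions and sequences come from the array files, and probe genes from their names there.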

Additional observations from a re-analysis of the deposited data

Results flagged for a closer look

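Among 66 groups of 5 rats (11 rows, both sexes, 3 ages), 6 had a highest or lowest rat whose gap to the nearest of the others took over 0.71 of the whole range, and about 1 in 20 groups would do so by chance. Kdr was highest in 1 young female, at 6.59 on the log2 scale of the table, where the nearest was at 6.26. The first Tie1 row was lowest in 1 young female at -4.97 (nearest -4.06) and in 1 adult male at -5.18 (nearest -4.40). Its only probe was above background on 20 of 30 arrays. Vwf was lowest in 1 young male at -1.19 (nearest -0.70), and the second Tie1 row in 1 adult male at -2.75 (nearest -2.00). Nos3 was lowest in 1 old female at 0.86 (nearest 1.46).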

How the results depend on the processing

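No member row passed the adjusted test between the sexes at any age under the alternatives run. Apart from the filter on dim rows, the fits named next used the scanner values, on which 28 rows passed at 8 weeks, 17 at 21 weeks and 0 at 78 weeks, against 28, 14 and 0 on the table. Counts of all rows that passed moved to 17 with normexp background, 9 with a slide block, 5 with the replicate block and 12 to 27 leaving out 1 array at 8 weeks. At 21 weeks they moved to 32 on the raw median signal, 1 with normexp, 30 with only rows above background on at least 5 of 10 arrays, 9 with a slide block, 4 with the replicate block and 8 to 22 leaving out 1 array. At 78 weeks, 9 rows passed without the 2 arrays at odds with their label and 0 to 1 leaving out 1 array, against 0. For age, 3627 probes became 717 with normexp, 9558 in a fit of the 20 arrays alone and 3004 to 4513 leaving out 1 array. The sex by age test moved from 1 probe to 3 with quantile normalization, 0 with normexp and 1 to 135 leaving out 1 array (135 without 21-week male replicate 1). The replicate block changed no adjusted call of a member, and gave Vwf at 8 weeks an unadjusted p of 0.0472 in limma. Among all called rows at 21 weeks, the share higher in females was 42.9% on the table, 52.9% on the scanner values and 57.9% with quantile normalization of those. For age the share of higher calls was 54.0% and 43.0%.

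Signs turned as follows, none on a called value, and the cause was not tested. On the raw median signal and with normexp, the first Tie1 row at 8 weeks became 0.012 and 0.030, Flt1 at 21 weeks -0.15 and -0.30, and Angpt1 at 21 weeks 0.00837 and 0.21. At 78 weeks, Vwf became 0.018 on scanner values, with a slide block and with the replicate block, and 0.021 with quantile normalization, Kdr became 0.073 and Flt1 -0.017 on the raw median signal, and normexp gave Pecam1 0.052, Cdh5 0.056, Tek 0.089 and Nos3 -0.21. For age, quantile normalization gave Tek A_44_P335594 -0.047 and Tie1 A_44_P988589 -0.015, and Flt1 A_43_P12015 and A_44_P520123 became 0.049 and 0.080 on the raw median signal and 0.23 and 0.19 with normexp. Normexp also gave Tek A_44_P534601 0.087, Tie1 A_44_P395771 0.062 and Vwf A_44_P1025918 -0.18, and the shared slide gave Tek A_44_P335594 -0.22 and Vegfa A_44_P300751 0.034. Leaving out 1 array, Flt1 ran from -0.027 to 0.12 and the first Tie1 row from -0.33 to 0.030 at 8 weeks, and Pecam1 from -0.078 to 0.061, Cdh5 from -0.17 to 0.035 and the second Tie1 row from -0.26 to 0.0025 at 21 weeks. At 78 weeks Kdr ran from -0.071 to 0.012, Flt1 from -0.032 to 0.14, the first Tie1 row from -0.086 to 0.32, Vwf from -0.11 to 0.12, Vegfa from -0.14 to 0.014 and Nos3 from -0.010 to 0.19. For age, Tek A_44_P335594 ran from -0.015 to 0.32 and Tie1 A_44_P988589 from -0.042 to 0.19. The age difference passed for Vegfa A_43_P15572 with the slide as a random block (adjusted p = 0.0367), with only probes above background on at least 10 of 20 arrays (0.0265) and in the fit of 20 arrays (0.0343), for Vwf A_44_P1025918 in that fit (0.0458), and for Tie1 A_44_P395771 with quantile normalization (0.0429), the same filter (0.0388) and that fit (0.0177).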
